A study of Mus musculus with 6 samples.

Results

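Transcripts of 9 genes, 8 that restrain the kinase complex mTORC1 and 1 for its activator RHEB, were examined in mouse hearts lacking the muscle methyltransferase SMYD1. The genes were chosen by symbol from the 54532 genes of the raw count table. They are *Ddit4* (encoding REDD1) and its paralogue *Ddit4l* (REDD2), the sestrin genes *Sesn1*, *Sesn2* and *Sesn3*, the TSC complex genes *Tsc1* and *Tsc2*, the GTPase gene *Rheb* and *Deptor*. RNA-seq was performed on 3 *Smyd1-KO* and 3 wild-type (WT) hearts collected at embryonic day (E) 9.5, and all 9 genes were among the 19372 genes with enough counts to be tested. *Smyd1-KO* embryos are homozygous for a conventional null *Smyd1* allele, so every tissue of the embryo lacks the gene and not the cardiomyocytes alone. WT embryos carry no stated mutation, no treatment is listed for either genotype, and each library was made from the RNA of 1 embryonic heart. The genes were picked with the expression differences of these same hearts in view, so the genotype differences of the 9 genes given here are descriptions and test nothing.

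mTORC1 is the protein kinase complex through which cells match protein synthesis and growth to nutrients, energy and oxygen. Its direct activator is the small GTPase RHEB on the lysosome, and the TSC complex switches RHEB off. REDD1 releases the TSC complex from inhibition when oxygen is low or cells are stressed, sestrins hold back the Rag GTPases that bring mTORC1 to the lysosome when amino acids are scarce, and DEPTOR binds mTOR itself. The developing heart needs this pathway for growth, and both *Ddit4* and *Sesn2* are known as genes induced by stress, the former by HIF, p53, glucocorticoids and ATF4 and the latter mainly by ATF4, p53 and NRF2.

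Of the 9 genes, *Ddit4* and *Sesn2* were called higher in *Smyd1-KO* hearts and the remaining 7 were not called. *Ddit4* was 7.92-fold and *Sesn2* 2.68-fold higher. A call required an adjusted *P* under 0.05 in edgeR's quasi-likelihood test, with Benjamini-Hochberg adjustment over all tested genes, and a log2 fold change of at least 0.5 in either direction. Over all genes tested, 4.28% were called, 2.86% higher and 1.42% lower. With these rules 2 of the 9 genes were called higher and 0 lower. DESeq2, which called 9.29% of all genes for which it gave an adjusted *P*, called the same 2 genes and 0 lower. None of the other 7 genes reached an unadjusted *P* under 0.05 in edgeR's test. Because the genes were selected from these data, nothing is read from the difference between their share and that of all genes.

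The promoters of both DDIT4 family genes and of *Sesn2* and *Sesn3* are shown here because each pair joins a gene that was called to a relative that was not. The sequences are RefSeq's, on GRCm38.p6, read 5′ to 3′ along the gene, from position -250 to position -71 counted from the RefSeq transcription start, a stretch of 180 bases with no GENCODE exon of the gene in it. Capitals mark the letters ACGTG or GCGTG, the core that HIF binds, on either strand.
*Ddit4* (chr10:59951841-59952020, minus strand): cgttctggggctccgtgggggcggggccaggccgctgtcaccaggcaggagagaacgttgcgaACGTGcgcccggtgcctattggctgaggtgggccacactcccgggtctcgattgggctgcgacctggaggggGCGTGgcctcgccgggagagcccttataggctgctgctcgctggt
*Ddit4l* (chr3:137623422-137623601, plus strand): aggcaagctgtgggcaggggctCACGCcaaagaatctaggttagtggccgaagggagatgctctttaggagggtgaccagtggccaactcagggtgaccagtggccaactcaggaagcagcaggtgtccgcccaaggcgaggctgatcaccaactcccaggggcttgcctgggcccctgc
*Sesn2* (chr4:132510527-132510706, minus strand): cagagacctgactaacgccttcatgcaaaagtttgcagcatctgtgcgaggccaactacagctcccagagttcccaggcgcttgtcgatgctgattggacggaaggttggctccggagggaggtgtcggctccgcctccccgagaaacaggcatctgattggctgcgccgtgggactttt
*Sesn3* (chr9:14276051-14276230, plus strand): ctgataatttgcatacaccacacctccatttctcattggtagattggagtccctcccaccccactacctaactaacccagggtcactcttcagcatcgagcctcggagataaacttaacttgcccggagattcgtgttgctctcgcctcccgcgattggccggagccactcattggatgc
The *Ddit4* stretch holds ACGTG at position -187 and GCGTG at position -115, both on the strand of the gene. The *Ddit4l* stretch holds GCGTG at position -228 on the opposite strand, and its full window has another at position 7, just past the start. Neither the *Sesn2* nor the *Sesn3* window holds either core. The search covered windows of 300 bases, 250 before and 50 after the start, in 9 windows for 8 of the 9 genes, with 2 windows for *Sesn1* and no entry for *Deptor*. One of the HIF cores was found in 6 of these 9 windows, those of *Ddit4*, *Ddit4l*, *Tsc1*, *Tsc2*, *Rheb* and 1 of *Sesn1*, and 43.8% of all 32851 RefSeq windows hold one. ACGTG alone is in 19.6% and GCGTG in 32.4% of all windows. In the *Rheb* window ACGTG lies on both strands, at positions -96 and -95, because the letters form the overlapping palindrome CACGTG. TGATGNAA, the letters bound by ATF4 with C/EBP factors, was in 0 of the 9 windows and in 3.97% of all windows. GTAAACA, the FOXO letters, was in 1 window of *Sesn1*, at position 23 on the opposite strand, and in 3.65% of all windows. These are matches of letters in short windows, and binding was not measured.

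*Ddit4* encodes REDD1, the stress-induced protein that acts on the TSC complex. Its counts were 4525, 4015 and 4724 in WT hearts 1, 2 and 3, which correspond to 76.0, 63.2 and 70.9 CPM (counts relative to the size of the library, corrected by the TMM normalization factors of edgeR). In *Smyd1-KO* hearts 1, 2 and 3 the counts were 29509, 31899 and 29542, or 607, 540 and 518 CPM. Every *Smyd1-KO* heart lay far above every WT heart, and within each genotype the hearts lay close together. The means were 70.0 ± 6.40 CPM in WT and 555 ± 46.6 CPM in *Smyd1-KO* hearts (SD, n = 3 each). The log2 fold change was 2.99 with an SE of 0.114, a 7.92-fold difference with a 95% interval of 6.58 to 9.53, and an edgeR adjusted *P* of 0.000126. It was the 49th largest rise on the log2 scale among the 19372 tested genes. Per kilobase of exonic length, *Ddit4* ranked between 1178 and 1410 among 19364 genes with a known length in WT hearts, and between 101 and 130 in *Smyd1-KO* hearts. It was called in every alternative analysis that was run, and its log2 fold change stayed between 2.92 and 3.06 when single hearts were left out.

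*Ddit4l* encodes REDD2, a related protein that also restrains mTORC1. It was scarce in every heart, with 100, 72 and 115 counts in WT hearts and 97, 72 and 48 counts in *Smyd1-KO* hearts. The corresponding levels were 1.68, 1.13 and 1.73 CPM in WT and 1.995, 1.22 and 0.841 CPM in *Smyd1-KO* hearts. The genotypes overlapped, with both the highest and the lowest level in a *Smyd1-KO* heart. Its log2 fold change was -0.17 with an SE of 0.352, and its 95% interval of -0.99 to 0.66 includes falls as well as rises. Per kilobase, *Ddit4* transcripts exceeded those of *Ddit4l* by 78.7 ± 12.6 times in WT hearts and 755 ± 259 times in *Smyd1-KO* hearts (SD, n = 3 each).

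**Figure D1:**
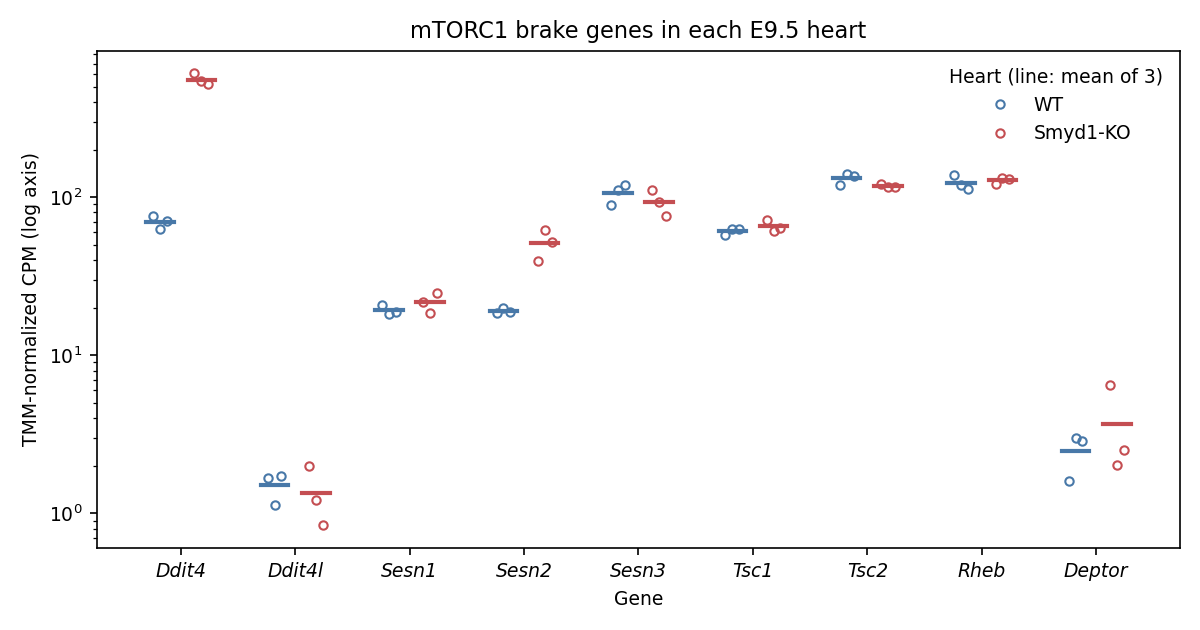
Level of each of the 9 genes (x axis) in each heart, in TMM-normalized CPM on a log axis, with 3 WT hearts in blue, 3 *Smyd1-KO* hearts in red and a line at each mean. *Ddit4* and *Sesn2* are the genes whose genotypes do not overlap, at 63.2 to 76.0 against 518 to 607 CPM and at 18.6 to 19.9 against 39.5 to 62.0 CPM. Among all tested genes, hearts did not overlap for 15.9% with *Smyd1-KO* higher and for 15.5% with *Smyd1-KO* lower.

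The sestrins are proteins that act on mTORC1 through the GATOR complexes and also bind AMPK. *Sesn2* had 1110, 1262 and 1252 counts in WT hearts, or 18.6, 19.9 and 18.8 CPM. In *Smyd1-KO* hearts 1, 2 and 3 it had 1922, 3665 and 2983 counts, or 39.5, 62.0 and 52.3 CPM. All 3 *Smyd1-KO* hearts were above all WT hearts, but they differed more from each other than the WT hearts did. The means were 19.1 ± 0.677 CPM in WT and 51.3 ± 11.3 CPM in *Smyd1-KO* hearts (SD, n = 3 each). The log2 fold change was 1.42 with an SE of 0.161, a 2.68-fold difference with a 95% interval of 2.06 to 3.49, and the edgeR adjusted *P* was 0.00664. Leaving out WT heart 2 gave a similar log2 fold change of 1.45 but an edgeR adjusted *P* of 0.0522, so the call was lost without that heart.

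*Sesn1* and *Sesn3* were not called. *Sesn1*, the sestrin best known as a p53 target, had 20.9, 18.4 and 18.8 CPM in WT hearts and 21.6, 18.5 and 24.6 CPM in *Smyd1-KO* hearts. *Sesn3*, a FOXO-responsive sestrin, had 88.9, 111 and 120 CPM in WT hearts and 111, 93.3 and 75.5 CPM in *Smyd1-KO* hearts. In both genes the genotypes overlapped. The log2 fold change of *Sesn1* was 0.16 (95% interval -0.15 to 0.47, edgeR adjusted *P* = 0.492) and that of *Sesn3* was -0.19 (95% interval -0.58 to 0.19, edgeR adjusted *P* = 0.505).

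Set side by side per kilobase of exonic length, the 3 sestrins made up a sum of 17.3 ± 0.805 CPM per kb in WT hearts and 26.3 ± 2.26 CPM per kb in *Smyd1-KO* hearts (SD, n = 3 each). *Sesn2* accounted for 32.6%, 32.5% and 30.1% of this sum in WT hearts 1, 2 and 3, and for 47.2%, 62.4% and 57.5% in the *Smyd1-KO* hearts. *Sesn3* accounted for the largest share in every WT heart, from 35.4% to 43.7%, and *Sesn2* for the largest share in every *Smyd1-KO* heart. The share of *Sesn3* was 18.9% to 30.2% in *Smyd1-KO* hearts, below its WT range, although its own level was not called lower. The ratio of *Sesn2* to *Sesn1* per kilobase was 1.14 ± 0.111 in WT and 2.79 ± 0.922 in *Smyd1-KO* hearts.

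**Figure D2:**
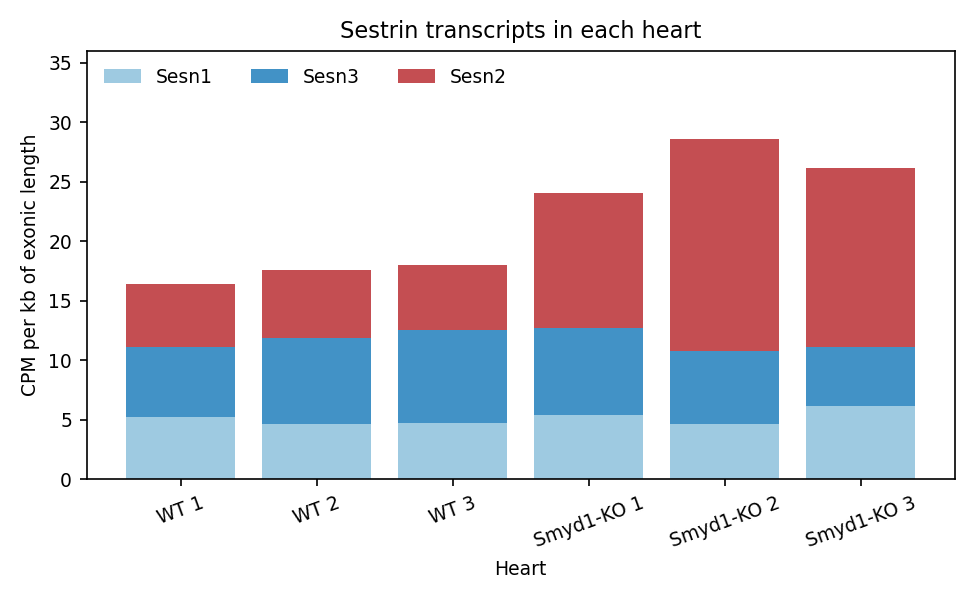
Sestrin transcripts in each of the 6 hearts (x axis), stacked as CPM per kb of exonic length (y axis). The summed height is 16.4 to 17.98 CPM per kb in WT and 24.1 to 28.6 CPM per kb in *Smyd1-KO* hearts, and the *Sesn2* layer is the part that is thicker in every *Smyd1-KO* heart.

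Neither gene of the TSC complex, through which REDD1 acts, was called. *Tsc1*, which encodes the stabilizing subunit hamartin, had 57.5, 62.4 and 62.8 CPM in WT hearts and 71.9, 60.8 and 64.0 CPM in *Smyd1-KO* hearts. *Tsc2*, which encodes tuberin, the subunit that switches RHEB off, had 119, 141 and 136 CPM in WT hearts and 121, 116 and 116 CPM in *Smyd1-KO* hearts. The genotypes overlapped for both. The log2 fold changes were 0.11 for *Tsc1* (95% interval -0.10 to 0.31, edgeR adjusted *P* = 0.490) and -0.16 for *Tsc2* (95% interval -0.36 to 0.04, edgeR adjusted *P* = 0.300). The ratio of *Tsc2* to *Tsc1* per kilobase was 2.54, 2.77 and 2.66 in WT hearts and 2.08, 2.35 and 2.23 in *Smyd1-KO* hearts, so all *Smyd1-KO* ratios were below all WT ratios. *Tsc2* shares 693 exonic bases with *Pkd1* on the opposite strand, and because the strand setting of the counting was not given in the sources used here, reads of the 2 genes may not be fully told apart. Both known partners on the fixed list, *Tbc1d7*, which encodes the TSC subunit TBC1D7, and *Rhebl1*, a RHEB paralogue, were not called (log2 fold changes of 0.08 and -0.00).

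*Rheb*, which encodes the GTPase that activates mTORC1, was measured at 138, 119 and 112 CPM in WT hearts and 121, 132 and 130 CPM in *Smyd1-KO* hearts. All *Smyd1-KO* values fell inside the WT range. Its log2 fold change was 0.05 with a 95% interval of -0.18 to 0.28 and an edgeR adjusted *P* of 0.781. Per kilobase, *Ddit4* stood at 2.51 ± 0.242 times the level of *Rheb* in WT hearts and at 19.2 ± 2.45 times in *Smyd1-KO* hearts, while the sum of *Tsc1* and *Tsc2* stood at 1.19 ± 0.205 and 1.08 ± 0.0955 times *Rheb* (SD, n = 3 each).

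*Deptor*, whose product binds and inhibits mTOR directly, was scarce and uneven. Its counts were 95, 189 and 190 in WT hearts and 313, 120 and 143 in *Smyd1-KO* hearts 1, 2 and 3, or 1.59, 2.98 and 2.85 CPM against 6.44, 2.03 and 2.51 CPM. *Smyd1-KO* heart 1 was the highest of the 6 hearts, and the other two *Smyd1-KO* hearts lay within the WT range. The log2 fold change of 0.56 had a 95% interval of -0.54 to 1.66 and an edgeR adjusted *P* of 0.5001. Without *Smyd1-KO* heart 1 it was -0.13. That heart also had the lowest summed level of cardiomyocyte markers, and the part of this in the *Deptor* value was not tested.

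**Figure D3:**
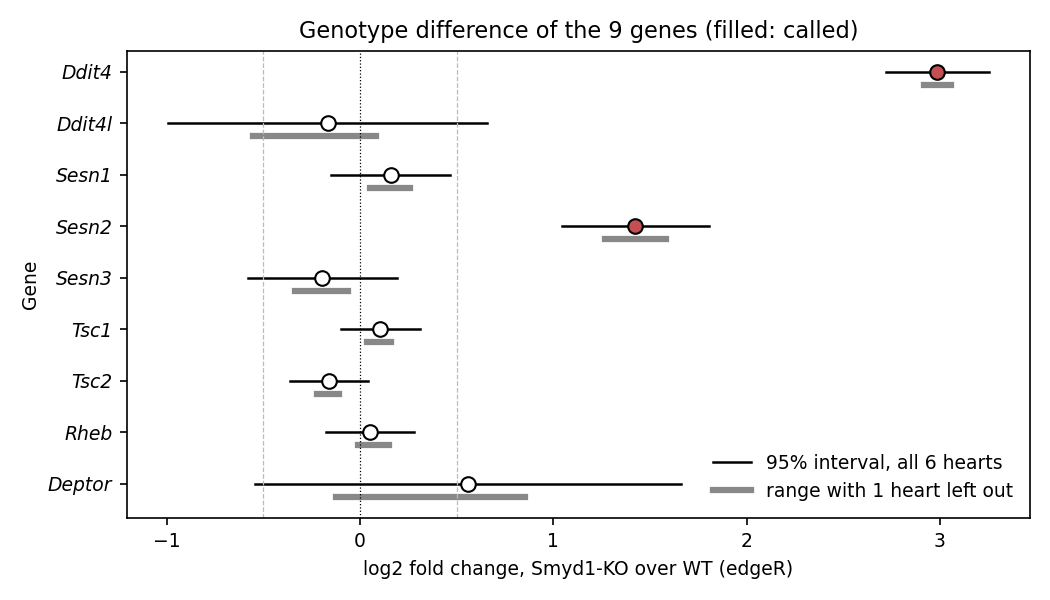
The log2 fold change of *Smyd1-KO* over WT hearts (x axis) for each of the 9 genes (y axis), with the 95% interval of the edgeR fit as a black line, the range over fits that leave out 1 heart as a grey bar and called genes filled red. The intervals of *Ddit4* (2.72 to 3.25) and *Sesn2* (1.05 to 1.80) lie beyond the dashed line at 0.5, and those of the other 7 genes include 0.

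The order of the levels was read per kilobase, in CPM per kb. In WT hearts *Ddit4* was the highest at a mean of 39.9, followed by *Rheb* at 15.97, *Tsc2* at 13.7, *Sesn3* at 6.99, *Sesn2* at 5.50, *Tsc1* at 5.15, *Sesn1* at 4.86, *Ddit4l* at 0.519 and *Deptor* at 0.279. Of these neighbours, *Rheb* and *Tsc2*, and *Tsc1* and *Sesn1*, overlapped between hearts and the other neighbours did not. In *Smyd1-KO* hearts *Ddit4* was again the highest at a mean of 316, *Rheb* followed at 16.5 and *Sesn2* came next at 14.8, ahead of *Tsc2* at 12.3. The range of *Sesn2*, 11.4 to 17.8, covered the ranges of both *Rheb* and *Tsc2*, so its place among these 3 was not fixed beyond the spread. *Sesn3* at 6.11, *Tsc1* at 5.54 and *Sesn1* at 5.42 overlapped each other, as did *Ddit4l* at 0.463 and *Deptor* at 0.412. These levels divide by all annotated exonic bases of a gene, and they understate genes with long exons that are rarely used.

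Each library was checked against its labels. Total counts per heart ran from 48627825 to 64217529. *Smyd1* itself had 414, 379 and 270 CPM in WT hearts and 101, 222 and 206 CPM in *Smyd1-KO* hearts, with no overlap, a log2 fold change of -1.01 and an edgeR adjusted *P* of 0.0973. Reads of the locus therefore remained in the *Smyd1-KO* hearts, and the deleted part of the gene was not analysed here. All 10 cardiomyocyte markers were detected in every heart, with a summed level of 11513 to 20026 CPM in WT and 8903 to 18497 CPM in *Smyd1-KO* hearts. Of these, 0 were called by edgeR, 2 had an unadjusted *P* under 0.05 in its test and 1 was called higher by DESeq2. The summed levels of erythroid and of epicardial markers did not overlap between genotypes. The 10 erythroid markers summed to 724 to 948 CPM in WT and 27.4 to 274 CPM in *Smyd1-KO* hearts, and 3 of them were called lower. The number called lower was 0 without WT heart 2 or 3 or without *Smyd1-KO* heart 3. It was 1 without WT heart 1, 8 without *Smyd1-KO* heart 1 and 2 without *Smyd1-KO* heart 2. The 6 epicardial markers summed to 106 to 129 CPM in WT and 141 to 266 CPM in *Smyd1-KO* hearts. Of these 6, 0 were called by edgeR (2 at an unadjusted *P* under 0.05, and 2 called higher by DESeq2). Summed levels overlapped between genotypes for the 8 endothelial and endocardial markers (603 to 731 CPM in WT, 609 to 930 CPM in *Smyd1-KO* hearts), the 6 smooth muscle markers (1622 to 2958 against 1263 to 2340 CPM) and the 8 macrophage and myeloid markers (5.32 to 8.31 against 4.57 to 5.52 CPM, with up to 3 of the markers at 0 in a heart). Of these markers, edgeR called 0. Those at an unadjusted *P* under 0.05 in its test were 4 endothelial and endocardial, 2 smooth muscle and 1 myeloid. Among all tested genes 20.8% were in that range without a call. DESeq2 called 1 endothelial and endocardial marker higher and 2 lower, and 1 smooth muscle marker lower. Without overlap of hearts, *Kdr* was higher (log2 fold change 0.70) and *Nfatc1* (-0.83) and *Npr3* (-0.52) lower, none of them called by edgeR. These are 37.5% of the endothelial and endocardial markers, near the 31.3% of all tested genes without overlap, so nothing is read from their number. The summed level adds genes with log2 fold changes of opposite sign. The part of these marker differences in the *Ddit4* and *Sesn2* differences was not tested. In whole hearts, a change in the number of cells of a type cannot be told apart from a change in RNA per cell.

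Beyond the 9 genes, 98 further genes in 10 lists were described, all of which could be tested. They come from the rest of the mTORC1 pathway, except for a list of 13 transcription factors known to act on some of the 9 genes. Of the 98 genes, 9 were called higher and 3 lower, beside 2.86% and 1.42% of all genes. The transcription factors, which are not pathway components, gave 4 of the calls higher and 1 of the calls lower. The median log2 fold change of the 98 genes was 0.04 against 0.00 for all genes. The numbers called among the 98 depended on single hearts, as did the number called over all genes, which was 830 with all hearts. Over all genes it was 501, 97 and 171 without WT heart 1, 2 and 3. It was 1256, 248 and 344 without *Smyd1-KO* heart 1, 2 and 3. Of the 98 genes, 1 was called higher and 0 lower without WT heart 2. Without WT heart 3 the counts were 3 and 1, and without *Smyd1-KO* hearts 2 and 3 they were 3 and 3, and 5 and 3. Leaving out WT heart 1 gave 6 and 4, and leaving out *Smyd1-KO* heart 1 gave 10 and 4. The lists were chosen with earlier results of these hearts known. For reading the counts at an unadjusted *P* that follow, 20.8% of all tested genes (4027 of 19372) were not called but had an unadjusted *P* under 0.05 in edgeR's test.

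The kinase complex itself was not called. Among the 6 genes of the mTORC1 core, 0 were called by edgeR or DESeq2 and 3 reached an unadjusted *P* under 0.05 in edgeR's test. The values of these 3 were lower in all *Smyd1-KO* hearts than in all WT hearts. Their log2 fold changes were -0.36 for *Mtor*, the kinase, -0.23 for *Rptor*, the scaffold that brings substrates to it, and -0.18 for *Tti1*, a chaperone for such kinases. Hearts did not overlap in this direction for 15.5% of all genes and in the other direction for 15.9%. Of the 4 mTORC2 genes 0 were called by either tool and 1, *Mapkap1* at -0.22, reached an unadjusted *P* under 0.05.

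On the amino acid side, where sestrins act, 2 of 13 Rag GTPase and Ragulator genes were called higher and 0 lower. They were *Fnip1* (log2 fold change 0.97 with an SE of 0.127) and *Flcn* (0.59 with an SE of 0.113), whose products form the folliculin complex that acts on RagC and RagD. Of the 13 genes, 0 were called higher without WT heart 2, and 1 without WT heart 3 or without *Smyd1-KO* heart 1 or 2. *Rragc* itself had a log2 fold change of 0.42 and was not called. Of the 12 GATOR and KICSTOR genes, 0 were called by either tool, while 5 reached an unadjusted *P* under 0.05. *Wdr59*, a GATOR2 subunit, passed the adjusted *P* threshold with a log2 fold change of 0.40, below the limit for a call. The largest others were *Seh1l* at 0.43 and *Nprl3*, a subunit of GATOR1, at -0.43. Among 4 genes listed for other amino acid sensing, the methionine-pathway sensor *Bmt2* (SAMTOR) was called higher at 0.60. *Castor2*, a gene of the CASTOR family, was called lower at -0.91. Both calls were lost without WT heart 2, and that of *Castor2* also without WT heart 3.

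Energy and growth factor inputs were counted next, beside the 4.28% of all tested genes called by edgeR. Of 12 AMPK and LKB1 genes 0 were called by edgeR and 4 reached an unadjusted *P* under 0.05, and DESeq2 called 1 higher. The largest log2 fold changes were those of the AMPK subunit genes *Prkag3* (-1.07) and *Prkab2* (0.67) and of the upstream kinase gene *Camkk2* (-0.46). Of the 14 genes of the insulin, PI3K and AKT arm, *Pik3r3*, which encodes a regulatory PI3K subunit, was called lower. Its mean was 40.7 CPM in WT and 12.5 CPM in *Smyd1-KO* hearts, a log2 fold change of -1.70. The call of *Pik3r3* was lost without WT heart 2.

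Downstream of mTORC1, 2 of 18 genes were called higher and 0 lower, and DESeq2 called 3 higher. The number called higher by edgeR was 0 without WT heart 2 or 3 or without *Smyd1-KO* heart 2. It was 1 without *Smyd1-KO* heart 3. *Eif4b*, a translation initiation factor phosphorylated by the S6 kinases, rose from a mean of 570 to 1003 CPM (log2 fold change 0.82 with an SE of 0.110), and *Lpin1*, a regulator of lipid genes, rose from 9.01 to 14.3 CPM (log2 fold change 0.66). *Eif4ebp1*, the translational repressor that mTORC1 inactivates, had a similar log2 fold change of 0.81 but an edgeR adjusted *P* of 0.0569. *Ulk1*, the autophagy kinase, had a log2 fold change of -0.49 just under the limit for a call. These are transcript levels, and phosphorylation of these proteins was not analysed here.

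Of 13 transcription factors known to act on one or more of the 9 genes, 4 were called higher and 1 lower. *Foxo3* rose from a mean of 51.4 to 115 CPM, *Cebpb* from 2.78 to 7.75 CPM, *Ddit3* (CHOP) from 7.95 to 18.1 CPM and *Atf4* from 127 to 191 CPM, with log2 fold changes of 1.16, 1.48, 1.19 and 0.59. *Hif1a* fell from 219 to 145 CPM, a log2 fold change of -0.59. *Epas1*, which encodes HIF2A, had a log2 fold change of 0.98 without a call. Without WT heart 1, 2 or 3, or without *Smyd1-KO* heart 2 or 3, only 1 of the 13 was called higher. Fewer genes were called over all genes in those fits too, as given above. Over the fits without 1 heart the log2 fold change ran from 1.12 to 1.22 for *Foxo3* and from 1.30 to 1.73 for *Cebpb*. It ran from 1.01 to 1.41 for *Ddit3* and from 0.47 to 0.67 for *Atf4*. For *Hif1a* it ran from -0.64 to -0.55, and the call of *Hif1a* was lost without WT heart 2 or 3.

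Other targets of the same factors were counted beside the 9 genes. These lists too were chosen with earlier results of these hearts known. Over all tested genes 2.86% were called higher and 1.42% lower, and the number called in each fit without 1 heart is given above. Whether any of these factors caused the differences was not tested. All 8 HIF targets on the list were called higher, with log2 fold changes from 1.33 to 2.51, led by *Egln3* (2.51), *Car9* (2.36), *Ankrd37* (2.33) and *Bnip3* (1.90) and joined by *Adm* (1.62), *Vegfa* (1.44), *Slc2a1* (1.37) and *Pdk1* (1.33). The number called was 3 without WT heart 2 and 5 without WT heart 3, and was 7 or 8 without any other heart. Of 8 ATF4 and CHOP targets, 3 were called higher, *Chac1* (4.26), *Trib3* (3.62) and the asparagine synthetase gene *Asns* (0.98), and 1 without WT heart 2 or 2 without WT heart 3. Of 10 FOXO targets, 4 were called higher, *Ccng2* (1.57), *Bcl6* (1.49), *Pik3ip1* (1.03) and *Klf15* (0.84), and 1 without WT heart 2 or 3 or without *Smyd1-KO* heart 2 or 3. Of 10 p53 targets, 0 were called by edgeR and 4 reached an unadjusted *P* under 0.05, with the largest values at 0.69 for *Eda2r*, 0.66 for *Bbc3* and -0.55 for *Trp53inp1*, and DESeq2 called 2 higher and 1 lower. The median log2 fold changes of these lists were 1.76, 0.53, 0.39 and 0.07.

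**Figure D4:**
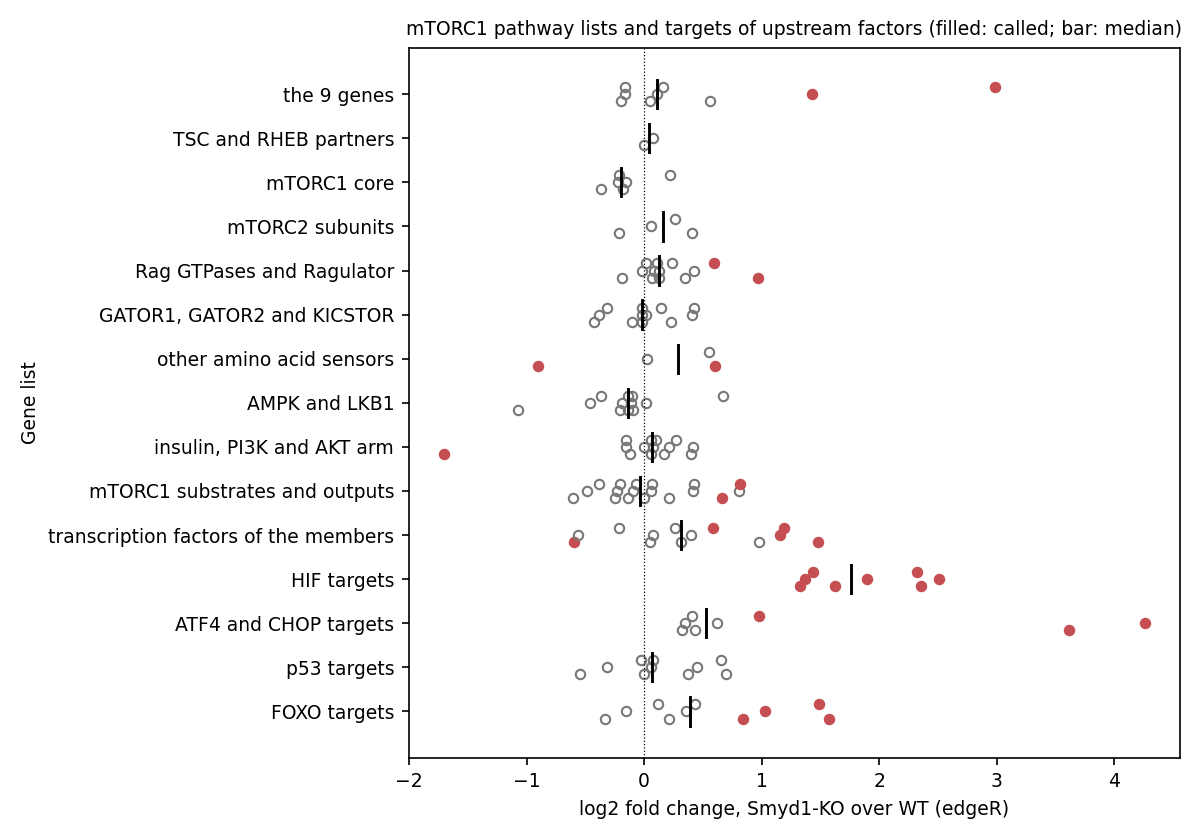
Genotype differences as log2 fold change of *Smyd1-KO* over WT hearts (x axis) for the tested genes of each list (y axis), with called genes filled red, others open and a bar at each list's median. The HIF targets lie at 1.33 to 2.51 and are all filled, whereas the 6 mTORC1 core genes lie between -0.36 and 0.22 and are all open.

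The genes whose profile over the 6 hearts was most like that of *Ddit4* and of *Sesn2* were taken from 13178 genes by Pearson's *r* of log2 CPM, as a description. For *Ddit4* they were *Crebrf*, *Spats2* and *Kif26a* (*r* of 0.997 each) and *Slc3a2* and *Ascl2* (0.996 each). For *Sesn2* they were *Slc7a5* (0.997), *Desi2*, *Trib3* and *Cars* (0.996 each) and *Chac1* (0.995). *Slc3a2* and *Slc7a5* encode the 2 chains of one amino acid transporter, and *Slc7a5* had a log2 fold change of 1.06 and *Slc3a2* of 0.66. With 6 hearts in 2 genotypes, any gene that differs strongly between genotypes gives a high *r*.

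The genes next to the 9 were also examined. Of the 18 nearest tested protein-coding neighbours, 1 on each side of each gene, 0 were called by edgeR or DESeq2 and 7 reached an unadjusted *P* under 0.05 in edgeR's test, beside the 20.8% of all tested genes given above. *Ddit4* lies on chromosome 10 between *Dnajb12* (log2 fold change 0.09, 50366 bases away) and *Anapc16* (0.31, 35574 bases away). *Sesn2* lies on chromosome 4 between *Med18* (-0.19, 28110 bases away) and *Atpif1* (0.09, 20053 bases away).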

How the data were processed

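RNA of 6 individual E9.5 hearts was measured by RNA-seq. The authors selected poly A RNA, aligned the reads to mm10 with STAR and deposited raw counts per gene as whole numbers, the unit used here. The counting tool, annotation release and strand setting are not given in the sources used here. A second deposited table, normalized with DESeq2, was not used, and 0 columns were left without a sample. Genotype and replicate number came from the sample titles.

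Counts were fitted in R 4.3.3 with edgeR 4.0.16 (filterByExpr, TMM normalization, quasi-likelihood test, Benjamini-Hochberg adjustment over 19372 genes), and tested first on simulated data. Intervals are at the 95% level of that fit. Levels are CPM, and levels per kb divide by the exonic length in GENCODE (GRCm38). Alternatives were DESeq2 1.42.0, RLE and upper-quartile normalization, removal of the mitochondrially encoded and the haemoglobin genes, other filters on low counts, calls with no fold limit, a fit with the replicate block and fits without 1 heart each. Total counts per heart ran from 48627825 to 64217529, and *P* values rest on 3 hearts per genotype.

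The 9 genes and all lists were chosen with earlier results of these data known. The text names the 9 genes, each called gene of a list with up to 3 others of largest log2 fold change, the 5 genes with the highest *r* for the 2 genes of largest change and the nearest neighbours. A value of a listed gene that this rule would name is left out. Promoters came from RefSeq (GRCm38.p6) and were searched on both strands. Plots were drawn with matplotlib 3.10.9. Protein and chromatin data were not analysed here.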

Additional observations from a re-analysis of the deposited data

How the results depend on the processing

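The count of the 9 genes called higher was 2 in edgeR and under DESeq2, RLE and upper-quartile normalization, removal of mitochondrially encoded and haemoglobin genes, both other filters on low counts and no limit on the fold change, and 0 were called lower throughout. Leaving out single hearts gave 1 to 2, with 1 only without WT heart 2, where *Sesn2* lost its call. Without single hearts the log2 fold change ran from -0.0101 to 0.15 for *Rheb* (below 0 without WT heart 3), from -0.13 to 0.85 for *Deptor* (below 0 without *Smyd1-KO* heart 1) and from -0.55 to 0.0842 for *Ddit4l* (above 0 without *Smyd1-KO* heart 3), and the cause was not tested. None of these 3 was called in any analysis. For the 98 further genes of the 10 lists, leaving out single hearts gave 1 to 10 called higher and 0 to 4 called lower. With all hearts these numbers were 9 and 3. DESeq2 gave 12 and 3. Over all genes the number called was 830 with edgeR, 1749 with DESeq2, and 97 to 1256 without single hearts (lowest without WT heart 2).

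Each number is given to 1 embryo of either genotype. The deviations of same-numbered hearts from their genotype means had correlations of -0.216, -0.054 and -0.182, and 0 of the 6 hearts correlated best with its own number. With 3 hearts per genotype, this check cannot exclude that same-numbered hearts shared a litter or a preparation. With the replicate number as a block, 59 genes were called in all, and 1 of the 9 genes was called higher and 0 lower. Of the 98 further genes, 1 was called higher and 0 lower. *Ddit4* remained called, and *Sesn2* had an edgeR adjusted *P* of 0.0561.

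With 3 hearts per genotype, the intervals of *Ddit4l* and *Deptor*, the genes with the fewest counts, include differences of 0.5 on the log2 scale in either direction. A difference of that size is therefore not excluded for them. The interval of *Sesn3* (-0.58 to 0.19) includes a fall of that size.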
